A study of Mus musculus with 8 samples.

Results

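The MYC and MAX network is a family of transcription factors with a basic helix-loop-helix leucine zipper, represented here by 10 genes: Myc, Mycn, Mycl, Max, Mxd1, Mxd3, Mxd4, Mxi1, Mnt and Mlx. The genes were chosen by name, through probe sets that the array annotation gives to exactly 1 gene symbol, and all 10 were among the 19938 genes measured, each with 1 probe set. Their RNA was compared on 8 arrays of sorted spleen dendritic cells from untreated Il12b-EYFP reporter mice, in which a yellow fluorescent protein reports the gene of the interleukin 12 p40 subunit. The cells had been sorted as lacking lineage markers, with absent or low Bst2, high CD11c and CD8α, and the sources describe them as XCR1+ dendritic cells, the type known for cross-presentation to CD8 T cells. Cells with CCR7 and reporter are called CCR7+Il12b+ here (n = 2 arrays), cells with CCR7 and no reporter CCR7+Il12b- (n = 3 arrays), and cells with neither immature (n = 3 arrays). CCR7 guides mature dendritic cells to T cell zones, and the series title gives maturation in untreated animals as the subject. All 3 groups carry the reporter allele, and the sources used here give no age or sex and do not say whether replicates came from separate mice, so each p reflects the spread among these arrays, part of which may be technical.

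MYC proteins pair with MAX, bind the E-box CACGTG and activate genes of growth, ribosome production and the cell cycle. The MXD proteins, MXI1 and MNT also pair with MAX, bind the same sequence and recruit SIN3 and histone deacetylases, so that they oppose MYC at shared targets. MLX forms a parallel branch with the glucose-sensing proteins MondoA and ChREBP. In dendritic cells Mycl is the MYC family gene known to support the XCR1+ type, and MXD1 is known in many lineages as a factor of cells that leave the cycle and differentiate.

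RefSeq promoters of the assembly GRCm38.p6 were matched by gene ID for 9 of the 10 genes, with 11 promoters among them. Each held 250 bases before and 50 bases after the start site that its entry marks. This site can lie inside the RefSeq extent of the gene. The Mycl gene begins at chr4:122995588, before the stretch shown, and the Mlx gene at chr11:101086707, before its window. Myc had no entry matched. Shown are the bases before the marked start sites of Mycl (chr4:122995681-122995930, plus strand) and Mxd1 (chr6:86669160-86669409, minus strand). These genes were chosen because they took opposite directions in the arrays. Capitals mark the GC box GGGCGG and the TATA motif TATAAA.
Mycl: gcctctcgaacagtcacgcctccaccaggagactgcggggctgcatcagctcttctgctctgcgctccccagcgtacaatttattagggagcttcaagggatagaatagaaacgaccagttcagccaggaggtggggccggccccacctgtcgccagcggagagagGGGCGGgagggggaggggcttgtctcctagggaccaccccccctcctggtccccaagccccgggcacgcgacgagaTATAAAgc
Mxd1: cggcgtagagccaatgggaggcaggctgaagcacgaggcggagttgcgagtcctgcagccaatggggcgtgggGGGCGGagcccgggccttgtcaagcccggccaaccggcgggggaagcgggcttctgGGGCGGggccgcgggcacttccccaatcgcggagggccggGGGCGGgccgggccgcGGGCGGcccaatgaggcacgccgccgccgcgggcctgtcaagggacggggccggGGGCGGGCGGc
Motifs were searched on both strands of the whole 300 bases. The Mycl promoter held 1 TATAAA, which starts 8 bases before the marked start site, and 1 GC box, 84 bases before it. The Mxd1 promoter held 6 GC boxes, of which the last pair overlaps, and no TATAAA, and its bases were 76.7% G or C against 64% in Mycl. Of all 32851 promoters of the table, 13.6% held TATAAA and 35.7% a GC box.

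The E-box that these proteins themselves bind was found in the promoters of 4 of the genes, Max, Mxd4, Mnt and Mlx, and in 7.15% of all promoters. It spans the marked start site of Max and lies 219 bases before that of Mxd4, 123 before that of Mnt and 40 before that of Mlx. The stretches shown, with the E-box in capitals, are chr12:76962236-76962261 (minus strand), chr5:34187914-34187939 (minus), chr11:74830791-74830816 (plus) and chr11:101087240-101087265 (plus).
Max: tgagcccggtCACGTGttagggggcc
Mxd4: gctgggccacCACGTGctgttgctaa
Mnt: ccacccaagcCACGTGtgcgcgcgcg
Mlx: tgggttggatCACGTGactgagcctc
Neither Mycl nor Mxd1 held a CACGTG in this window. The kappaB motif was found in none of the 11 promoters and in 4.51% of all. These matches describe the letters of the windows and not binding.

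The values are log2 expression, and each probe set has its own scale, so levels are compared between arrays and not between genes. The signal of 1190 olfactory and vomeronasal receptor genes set a background mark of 4.98, their 95th percentile, which the mean of at least 1 group passed for 12925 genes. Arrays of a group correlated at 0.987 in CCR7+Il12b+, 0.986 to 0.992 in CCR7+Il12b- and 0.992 to 0.996 in immature cells. Replicate 3 of CCR7+Il12b- stood apart from the others of its group on the first principal component, at 30.1 against 8.20 and 13.4, on the side of the CCR7+Il12b+ arrays at 52.2 and 53.6 and away from the immature arrays at -47.8 to -55.8. The group means of all 12 markers of XCR1+ dendritic cells lay above the mark. Itgae came nearest to it, at 4.71 and 5.31 in the CCR7+Il12b+ arrays. Xcr1 itself fell and stood at 8.12 and 7.64 in CCR7+Il12b+, 9.85, 9.83 and 8.94 in CCR7+Il12b-, and 10.89, 10.98 and 10.82 in immature cells. Il12b RNA was above the mark in all groups. It averaged 12.28 ± 0.10 in CCR7+Il12b+ (SD, n = 2), 10.81 ± 0.04 in CCR7+Il12b- (n = 3) and 7.03 ± 0.13 in immature cells (n = 3). Ccr7 RNA was also above the mark in all groups, with means of 12.61, 12.22 and 8.64 in the same order. Itgax, which encodes CD11c, Cd8a and Bst2 were lower in CCR7+Il12b+ than in immature cells, by 0.97, 0.31 and 0.46 (limma adjusted p = 0.000156, 0.0473 and 0.0398). In CCR7+Il12b- cells Bst2 was lower by 0.46 (adjusted p = 0.0322), and Itgax and Cd8a did not pass.

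Both main MYC family genes of these cells fell with maturation. Myc, the broadly expressed member, stood at 7.32 and 6.60 in the CCR7+Il12b+ arrays, 8.30, 8.15 and 7.47 in the CCR7+Il12b- arrays, and 9.61, 9.41 and 9.63 in the immature arrays. The 3 groups did not overlap, and the immature arrays lay close together. Myc was 6.01-fold lower in CCR7+Il12b+ than in immature cells (log2 change -2.59 ± 0.25 SE, limma adjusted p = 1.34e-05) and 2.98-fold lower in CCR7+Il12b- than in immature cells (-1.58 ± 0.22, adjusted p = 0.000455). Among 19938 genes these were the changes ranked 285 and 328 by size. Without CCR7+Il12b- replicate 3, which stood apart, the change in CCR7+Il12b- cells was -1.33 (adjusted p = 0.000859). The sample is RNA in bulk, in which fewer cells of a type and less RNA per cell cannot be told apart.

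Myc also differed between the mature groups and was 2.02-fold lower in CCR7+Il12b+ than in CCR7+Il12b- cells (-1.01 ± 0.25, limma adjusted p = 0.0339). This call was the least stable of the Myc calls. Without CCR7+Il12b+ replicate 2, the lowest array, the change was -0.65 with an adjusted p of 0.258. Here and wherever a CCR7+Il12b+ array is left out, the 1 array that stays is assumed to vary like those of the other groups. It also missed the threshold without CCR7+Il12b- replicate 1 (adjusted p = 0.0994) or 2 (0.115), without immature replicate 2 (0.0536) or 3 (0.0518), with only both groups in the model (0.0767) and with arrays centred on their medians (0.0516). With CCR7+Il12b- replicate 3 left out it was -1.26 (adjusted p = 0.00433).

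Mycl, the family member tied to dendritic cells, had values of 5.76 and 6.04 in CCR7+Il12b+, 7.24, 7.53 and 6.61 in CCR7+Il12b-, and 8.10, 8.35 and 8.15 in immature cells. The groups again did not overlap, and CCR7+Il12b- replicate 3 was the lowest of its group for Mycl as it was for Myc. Mycl was 4.93-fold lower in CCR7+Il12b+ than in immature cells (-2.30 ± 0.22, limma adjusted p = 1.43e-05) and 2.10-fold lower in CCR7+Il12b- than in immature cells (-1.07 ± 0.20, adjusted p = 0.00262). Without CCR7+Il12b- replicate 3 the smaller of these changes was -0.81 (adjusted p = 0.00317). CCR7+Il12b+ cells had 2.34-fold less Mycl than CCR7+Il12b- cells (-1.23 ± 0.22, adjusted p = 0.00766), a difference that missed the threshold without CCR7+Il12b+ replicate 1 (-1.08, adjusted p = 0.0837). Even in CCR7+Il12b+ cells Mycl stayed above the background mark.

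Mycn, the family member best known from the nervous system and other developing tissues, lay below the background mark in all arrays, at 4.69 and 4.77 in CCR7+Il12b+, 4.65, 4.85 and 4.73 in CCR7+Il12b-, and 4.67, 4.60 and 4.61 in immature cells. No level or fold is read from it.

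**Figure D1:**
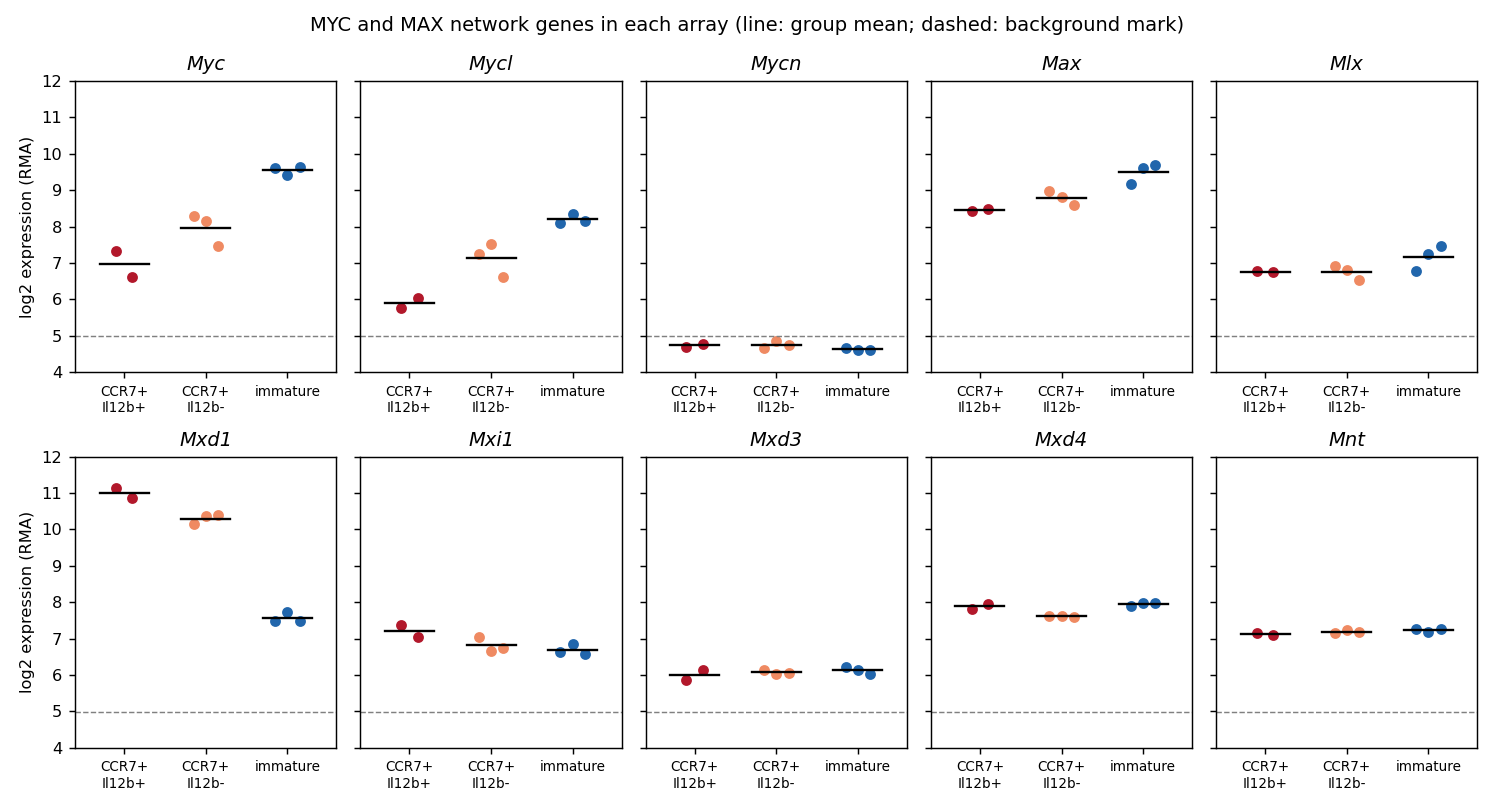
Log2 expression of the 10 network genes in each of the 8 arrays, with CCR7+Il12b+ at the left of each panel, CCR7+Il12b- in the middle and immature cells at the right; short lines are group means and the dashed line is the background mark of 4.98. Myc and Mycl step down towards CCR7+Il12b+ cells, Mxd1 steps up, and Mycn stays under the mark in every array.

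Max, the shared partner without which MYC and MXD proteins do not bind the E-box, moved less and in the direction of Myc. Its values were 8.43 and 8.49 in CCR7+Il12b+, 8.99, 8.80 and 8.59 in CCR7+Il12b-, and 9.17, 9.62 and 9.70 in immature cells. Every mature array lay below every immature array. Max was 2.05-fold lower in CCR7+Il12b+ than in immature cells (-1.03 ± 0.17, limma adjusted p = 0.000656) and 1.63-fold lower in CCR7+Il12b- than in immature cells (-0.70 ± 0.15, adjusted p = 0.00604; -0.60 and 0.0259 without CCR7+Il12b- replicate 3). The change of Max between the mature groups, -0.33 ± 0.17, did not pass the test (adjusted p = 0.352), and its 95% confidence interval ran from -0.71 to 0.04.

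Mlx, the partner of MondoA and ChREBP, had 6.77 and 6.76 in CCR7+Il12b+, 6.92, 6.80 and 6.52 in CCR7+Il12b-, and 6.78, 7.25 and 7.45 in immature cells. Immature replicate 1 lay with the mature arrays, apart from both other immature arrays. The change was -0.40 ± 0.19 for CCR7+Il12b+ (limma adjusted p = 0.135) and -0.41 ± 0.17 for CCR7+Il12b- (adjusted p = 0.106) against immature cells. Without immature replicate 1 both passed, at -0.59 (adjusted p = 0.0156) and -0.61 (adjusted p = 0.0117), and with array weights the change in CCR7+Il12b- cells passed as well (-0.46, adjusted p = 0.0219).

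Mxd1, the MAX partner that replaces MYC at E-boxes in differentiating cells, rose in both mature groups. It stood at 11.13 and 10.88 in CCR7+Il12b+, 10.14, 10.37 and 10.40 in CCR7+Il12b-, and 7.47, 7.74 and 7.47 in immature cells. A gap of more than 2 log2 units separated the highest immature array from the lowest mature array. The rise was 10.9-fold in CCR7+Il12b+ cells (3.44 ± 0.14, limma adjusted p = 2.97e-08) and 6.68-fold in CCR7+Il12b- cells (2.74 ± 0.13, adjusted p = 1.17e-07) against immature cells. By size these changes ranked 93 and 64 among all genes, and the second was 2.69 (adjusted p = 1.36e-06) without CCR7+Il12b- replicate 3.

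The mature groups also differed in Mxd1, with a level 1.63-fold higher in CCR7+Il12b+ than in CCR7+Il12b- cells (0.70 ± 0.14, limma adjusted p = 0.0123). The call was lost without CCR7+Il12b+ replicate 1, the higher array (0.57, adjusted p = 0.103). It was kept without CCR7+Il12b- replicate 3 (0.75, adjusted p = 0.0132).

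Mxi1, also called Mxd2, is a second repressor of this kind and changed little. Its values were 7.36 and 7.04 in CCR7+Il12b+, 7.04, 6.66 and 6.74 in CCR7+Il12b-, and 6.64, 6.84 and 6.58 in immature cells. Both CCR7+Il12b+ arrays lay above the immature arrays, while CCR7+Il12b- arrays overlapped both other groups. The rise of Mxi1 in CCR7+Il12b+ against immature cells was 1.43-fold (0.51 ± 0.15, limma adjusted p = 0.0248). It missed the threshold without CCR7+Il12b+ replicate 1 (change of 0.35) and without immature replicate 1 (limma adjusted p = 0.0589) or 3 (0.0865). Median centring (adjusted p = 0.127), array weights (0.0593) and the replicate number as a block also ended the call.

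Mxd4, another MAX partner that represses, was slightly lower in CCR7+Il12b- cells. Its arrays read 7.82 and 7.96 in CCR7+Il12b+, 7.62, 7.62 and 7.61 in CCR7+Il12b-, and 7.89, 7.98 and 7.98 in immature cells. The 3 CCR7+Il12b- arrays were nearly equal and lay under all others. Mxd4 was 1.26-fold lower in CCR7+Il12b- than in immature cells (-0.34 ± 0.10, limma adjusted p = 0.0272), and CCR7+Il12b+ cells differed from immature cells by -0.06 ± 0.11 (adjusted p = 0.705). The comparison of both mature groups gave 0.28 ± 0.11 (adjusted p = 0.191). The call in CCR7+Il12b- cells missed the threshold without immature replicate 2 (adjusted p = 0.105) or 3 (0.102) and without CCR7+Il12b- replicate 1 (0.0578), 2 (0.0716) or 3 (0.0632). It was also lost after quantile normalization (adjusted p = 0.115) and with the replicate number as a block.

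Mxd3 and Mnt passed the test in no comparison. Mxd3, which in mouse is known from proliferating precursor cells, ranged over 5.85 to 6.14 in CCR7+Il12b+, 6.03 to 6.13 in CCR7+Il12b- and 6.04 to 6.22 in immature cells. Mnt, the MAX partner present in most cells, ranged over 7.09 to 7.15 in CCR7+Il12b+, 7.14 to 7.23 in CCR7+Il12b- and 7.18 to 7.27 in immature cells. The 95% confidence interval for Mnt in CCR7+Il12b+ against immature cells was -0.35 to 0.12 on the log2 scale, and that for Mxd3 was -0.41 to 0.14.

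Against immature cells 5 of the 10 genes passed in CCR7+Il12b+ cells, 2 higher (Mxd1 and Mxi1) and 3 lower (Myc, Mycl and Max), where 32.0% of all genes were called, 14.1% higher and 17.9% lower. Against the same arrays 5 of 10 passed in CCR7+Il12b- cells, 1 higher (Mxd1) and 4 lower (Myc, Mycl, Max and Mxd4), where 23.6% of all genes were called, 9.10% higher and 14.5% lower. Both comparisons share their 3 immature arrays. In the comparison of the mature groups 3 of 10 passed, Mxd1 higher and Myc and Mycl lower in CCR7+Il12b+ cells, against a background of 7.08%, of which 2.61% were higher and 4.47% lower. Without CCR7+Il12b+ replicate 1, with 1 array left in that group, only Myc passed in that comparison, and without CCR7+Il12b- replicate 3 the 3 counts were 5, 4 and 3. Arrays of the 2 groups did not overlap for 8 of the 10 genes in CCR7+Il12b+ against immature cells, 3 of them higher, with Mycn below the mark among them, and 5 lower, where 57.1% of all genes had no overlap, 33.5% higher and 23.6% lower. For CCR7+Il12b- against immature cells it was 5 genes, 1 higher and 4 lower, beside 41.3% of all genes, 22.1% higher and 19.2% lower. For the mature groups it was 5 genes, 2 higher and 3 lower, beside 29.6% of all genes, 15.3% higher and 14.3% lower. The median change of the 10 genes was -0.12 in CCR7+Il12b+ and -0.20 in CCR7+Il12b- against immature cells, and -0.04 between the mature groups, beside medians over all genes of 0.09, 0.06 and 0.02.

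**Figure D2:**
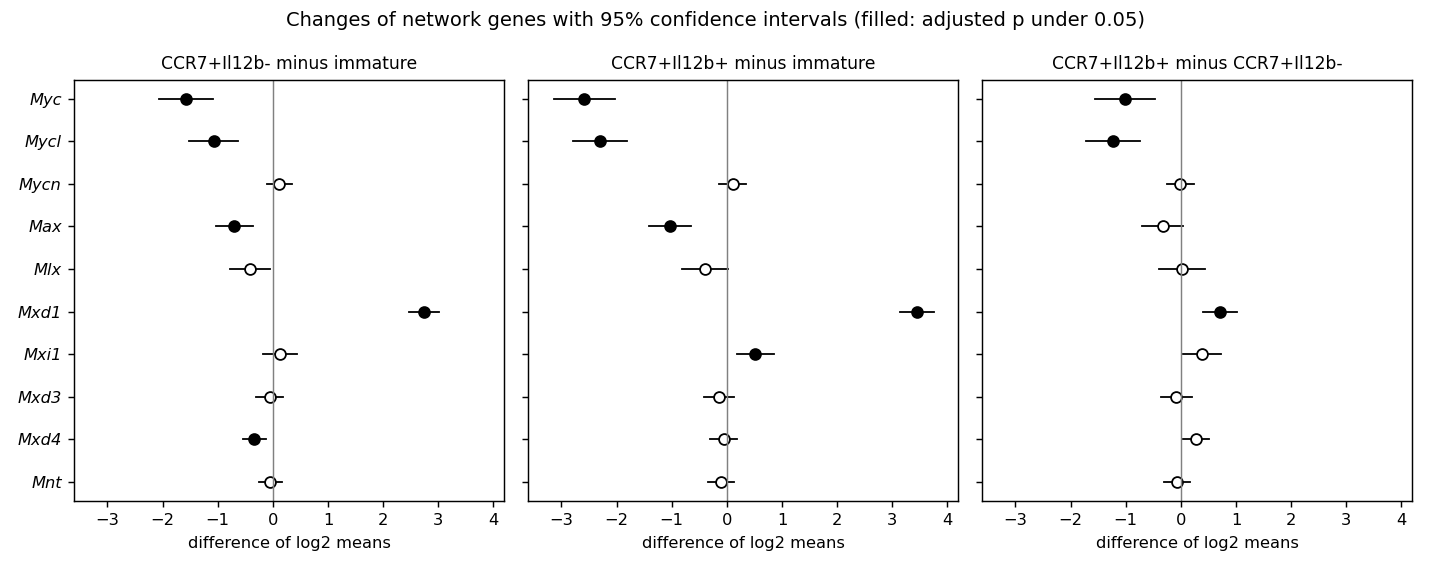
Differences of log2 means for the 10 genes in the 3 comparisons, with 95% confidence intervals from the limma model; filled points have an adjusted p under 0.05. Mxd1 lies far to the right in both comparisons with immature cells, Myc and Mycl lie to the left in all 3, and Mnt, Mxd3 and Mycn lie near 0.

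Most genes known to be activated by MYC were lower in mature than in immature cells. Of 31 such genes 30 were measured. With CCR7 and reporter, 25 were lower and 1 higher than in immature cells (median change -1.35). With CCR7 and no reporter, 22 were lower and 1 higher (median -0.74). Set against CCR7+Il12b- cells, 13 were lower in CCR7+Il12b+ cells and 0 higher (median -0.53). Of all genes 17.9% were lower and 14.1% higher in the first of these comparisons, 14.5% and 9.10% in the second and 4.47% and 2.61% in the last, with medians of 0.09, 0.06 and 0.02. Leaving out any single array gave 21 to 25, 21 to 23 and 9 to 15 lower genes in these comparisons, the lowest of the last being without CCR7+Il12b+ replicate 1.

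Nop58, Dkc1 and Fbl, which act in ribosome production, were among the targets with the largest changes. Nop58, a core protein of the particles that methylate ribosomal RNA, read 5.88 and 5.70 in CCR7+Il12b+, 7.86, 7.42 and 6.81 in CCR7+Il12b-, and 8.91, 8.70 and 8.90 in immature cells. The groups did not overlap, and CCR7+Il12b- replicate 3 was again the lowest of its group. Nop58 fell by 3.05 ± 0.24 in CCR7+Il12b+ (limma adjusted p = 2.71e-06) and by 1.47 ± 0.21 in CCR7+Il12b- cells (adjusted p = 0.00051) against immature cells. Dkc1, the enzyme that makes pseudouridine in ribosomal RNA, fell below the background mark in CCR7+Il12b+ cells, at 4.51 and 4.38, against 7.04, 7.38 and 7.35 in immature cells, which makes it at least 4.86-fold lower (adjusted p = 5.03e-07). In CCR7+Il12b- cells Dkc1 stood at 5.69, 5.40 and 5.12, a change of -1.85 ± 0.15 (adjusted p = 1.08e-05).

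Fbl, the methyltransferase fibrillarin of the same particles as Nop58, had a change of -2.45 ± 0.18 between CCR7+Il12b+ and immature cells (limma adjusted p = 1.56e-06). With the mean of all its probe sets the change of Fbl was -1.61. Ldha, the enzyme that makes lactate at the end of glycolysis, had 6.69 and 6.87 in CCR7+Il12b+, 8.36, 8.63 and 7.78 in CCR7+Il12b-, and 9.43, 9.67 and 9.77 in immature cells. Its change in CCR7+Il12b+ cells was -2.85 ± 0.21 (adjusted p = 1.97e-06). Srm, which makes the polyamine spermidine, changed by -1.39 ± 0.14 in CCR7+Il12b- cells (adjusted p = 5.05e-05).

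Of the activated targets called between the mature groups, those with the most change were Nop58 (-1.57 ± 0.24), Ldha (-1.47 ± 0.21), Fbl (-1.23 ± 0.18) and Pa2g4, a growth-regulated nucleolar protein (-1.19 ± 0.21), with limma adjusted p-values of 0.00258, 0.00194, 0.00187 and 0.00669. Pa2g4 missed the threshold without CCR7+Il12b+ replicate 1 (adjusted p = 0.0573). With the mean of its probe sets Fbl changed by -0.70.

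Ccnd2, which encodes the G1 cyclin D2, went against its list and rose in both mature groups. It had 7.99 and 8.10 in CCR7+Il12b+, 8.44, 8.91 and 8.44 in CCR7+Il12b-, and 6.53, 6.33 and 6.36 in immature cells. The rise was 1.64 ± 0.15 with the reporter and 2.19 ± 0.14 without it (limma adjusted p = 1.34e-06 for CCR7+Il12b- cells). The activated targets that passed in neither direction in CCR7+Il12b+ cells, named after their values were seen, were Odc1, the first enzyme of polyamine synthesis (0.03), Rcc1, a nuclear exchange factor (-0.09), and the mitochondrial chaperonin genes Hspd1 (0.19) and Hspe1 (0.15).

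**Figure D3:**
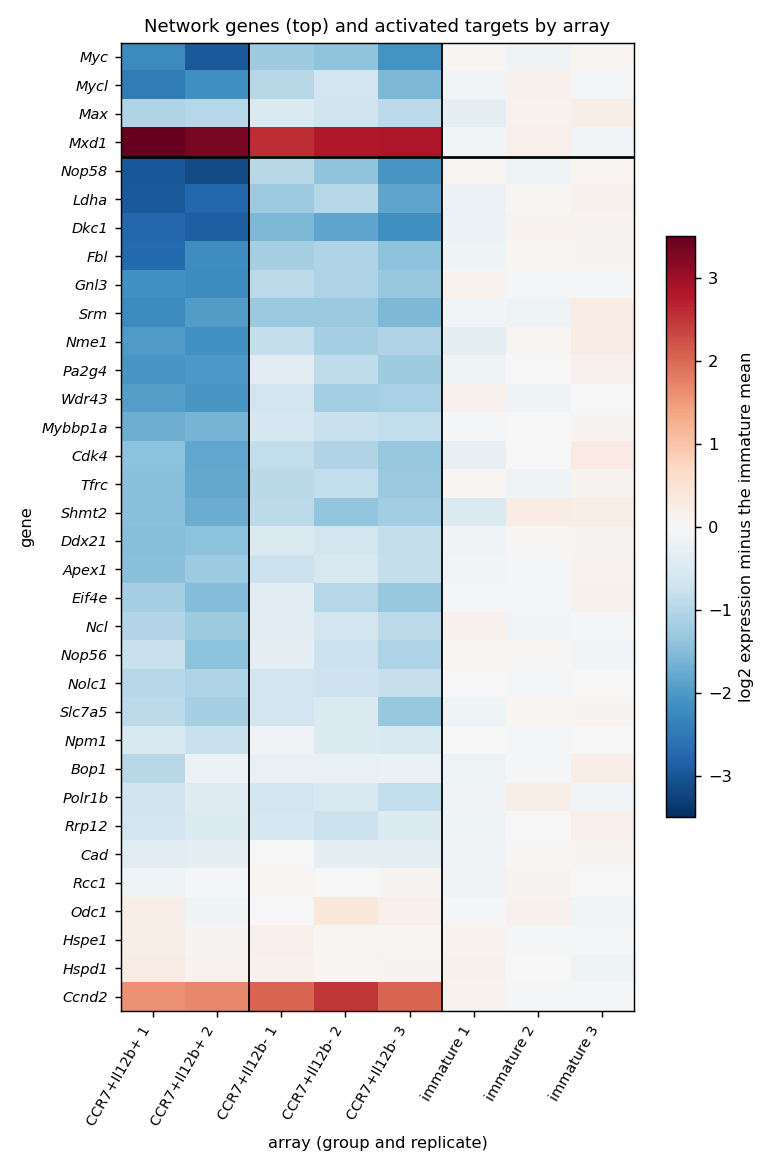
Log2 expression minus the immature mean for network genes (top rows) and for activated MYC targets (below the line) in the 8 arrays, which run from CCR7+Il12b+ through CCR7+Il12b- to immature cells; blue is lower and red higher. Most targets are blue in mature arrays and deepest in CCR7+Il12b+ arrays, while Ccnd2 is red in every mature array.

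Part of the genes known to be repressed by MYC, some of them with its partner MIZ1, were higher in mature cells. Of 6 such genes 5 were measured, of which 4 were higher in CCR7+Il12b+ cells (median change 1.002), 3 in CCR7+Il12b- cells (median 0.70) and 2 in the comparison of mature groups (median 0.33), and 0 were lower in any. The shares of all genes called higher were 14.1%, 9.10% and 2.61%, and the 2 of the last comparison became 0 without CCR7+Il12b+ replicate 1. Cdkn2b, the CDK4 and CDK6 inhibitor p15, had 7.59 and 7.31 in CCR7+Il12b+, 6.58, 6.63 and 6.75 in CCR7+Il12b-, and 5.11, 5.03 and 5.32 in immature cells. Its groups did not overlap, and the rise was 2.30 ± 0.13 in CCR7+Il12b+ (limma adjusted p = 3.86e-07) and 1.498 ± 0.12 in CCR7+Il12b- cells (adjusted p = 8.77e-06) against immature cells. Gadd45a, a stress and growth arrest gene, rose by 1.196 ± 0.17 in CCR7+Il12b+ cells (adjusted p = 0.000267). Ndrg1, a gene named for its repression by N-Myc, rose by 1.002 ± 0.20 in CCR7+Il12b+ and by 0.96 ± 0.18 in CCR7+Il12b- cells.

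Ndrg2, its relative, read 5.37 and 5.95 in CCR7+Il12b+, 5.56, 5.62 and 5.82 in CCR7+Il12b-, and 5.07, 4.97 and 4.86 in immature cells, whose mean of 4.97 was just below the mark of 4.98. It was at least 1.57-fold higher in CCR7+Il12b+ and at least 1.58-fold higher in CCR7+Il12b- cells. Its call in CCR7+Il12b+ cells was lost without CCR7+Il12b+ replicate 2 (limma adjusted p = 0.094). Cdkn1b, the inhibitor p27, passed in no comparison and was named after its values were seen, with changes of -0.04 for CCR7+Il12b+ and -0.37 for CCR7+Il12b-. Cdkn2b was higher by 0.80 and Gadd45a by 0.76 in CCR7+Il12b+ than in CCR7+Il12b- cells. Without CCR7+Il12b+ replicate 1 neither passed, at 0.66 (adjusted p = 0.0519) for Cdkn2b and 0.49 (adjusted p = 0.177) for Gadd45a. The Gadd45a difference also missed the threshold without CCR7+Il12b- replicate 2 (adjusted p = 0.0802) or 3 (0.0504), with only both groups in the model and with arrays centred on their medians, and passed in 10 of 15 alternatives. In CCR7+Il12b- against immature cells Gadd45a was at 0.44 and passed only without either CCR7+Il12b+ array (adjusted p = 0.0304 each time), which gives 4 higher genes of the list.

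Cofactors moved in both directions. Of 15 cofactor genes 14 were measured, with 4 higher and 5 lower in CCR7+Il12b+ (median change 0.15), 2 higher and 6 lower in CCR7+Il12b- against immature cells (median -0.05), and 0 higher and 2 lower between the mature groups (median 0.10). The shares of all genes were 14.1% higher and 17.9% lower, 9.10% and 14.5%, and 2.61% and 4.47%. Ruvbl1, a DNA helicase-like ATPase of the TIP60 and INO80 complexes, had 5.75 and 6.12 in CCR7+Il12b+, 7.53, 7.28 and 6.90 in CCR7+Il12b-, and 8.48, 8.78 and 8.86 in immature cells. Its change was -2.77 ± 0.19 in CCR7+Il12b+ (limma adjusted p = 1.3e-06) and -1.47 ± 0.17 in CCR7+Il12b- cells (adjusted p = 0.000137) against immature cells. Kat2a, the histone acetyltransferase GCN5, changed by -2.02 ± 0.18 and -1.16 ± 0.16 in the same comparisons. Ruvbl2, the partner of Ruvbl1, changed by -1.49 and -0.79, and Mycbp, a protein that binds the MYC amino terminus, by -0.73 and -0.72.

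Named after their values were seen, the higher cofactors in CCR7+Il12b+ cells were the MXD corepressors Sin3a (0.47 ± 0.12) and Sin3b (0.57 ± 0.11), the ATPase Ep400 (0.51 ± 0.15) and Zbtb17, which encodes MIZ1 (0.57 ± 0.15). In CCR7+Il12b- cells they were Sin3a (0.40 ± 0.11) and Sin3b (0.29 ± 0.09). Leaving out single arrays gave 1 to 5 higher cofactors in CCR7+Il12b+ cells, the lowest without CCR7+Il12b+ replicate 1, and 2 without immature replicate 3. It gave 0 to 2 in CCR7+Il12b- cells, with 0 when immature replicate 1, immature replicate 3 or CCR7+Il12b- replicate 1 was missing, and 1 without immature replicate 2 or CCR7+Il12b- replicate 2 or 3. Of the deacetylases of the SIN3 complex, also named after their values were seen, Hdac2 was lower, with changes of -0.72 ± 0.12 for CCR7+Il12b+ and -0.51 ± 0.10 for CCR7+Il12b-, while Hdac1 did not pass (0.02 and -0.03, adjusted p = 0.918 and 0.879). Ruvbl1 (-1.30, limma adjusted p = 0.00241) and Kat2a (-0.86, adjusted p = 0.0167) were lower in CCR7+Il12b+ than in CCR7+Il12b- cells, and Kat2a missed the threshold without CCR7+Il12b- replicate 2 or without either CCR7+Il12b+ array, at adjusted p-values of 0.0506 to 0.122.

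Genes that control MYC protein turnover did not share a direction. Of 8 genes 7 were measured, with 2 higher and 3 lower in CCR7+Il12b+ (median change -0.59), and 1 higher and 3 lower in CCR7+Il12b- against immature cells (median -0.37), beside 14.1% higher and 17.9% lower, and 9.10% and 14.5%, of all genes. One of the 2 higher, Usp28, a deubiquitinase that stabilises MYC and named after its values were seen, changed by 0.43 ± 0.14 (limma adjusted p = 0.0358). Its immature mean of 5.13 lay near the background mark of 4.98. It missed the threshold without CCR7+Il12b+ replicate 1 (change of 0.26). The same held without immature replicate 1 (adjusted p = 0.0908), 2 (0.0738) or 3 (0.0704). Huwe1, a ubiquitin ligase that acts on MYC and MIZ1, stood at 10.45 and 10.39 in CCR7+Il12b+, 9.86, 9.90 and 10.13 in CCR7+Il12b-, and 9.23, 9.17 and 9.03 in immature cells. The groups did not overlap, and Huwe1 rose by 1.28 ± 0.12 in CCR7+Il12b+ (limma adjusted p = 1.4e-05) and by 0.82 ± 0.11 in CCR7+Il12b- cells (adjusted p = 0.000343). In CCR7+Il12b+ against CCR7+Il12b- cells it was the 1 turnover gene called (0.46 ± 0.12, median of the list 0.17). Of all genes 2.61% were higher and 4.47% lower there. Huwe1 passed in 3 of 15 alternative settings, without CCR7+Il12b- replicate 3 among them. Without the other arrays in turn its adjusted p lay between 0.06 and 0.178.

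The turnover genes that fell were Aurka, a mitotic kinase that stabilises N-MYC (-0.98 in CCR7+Il12b+ and -0.53 in CCR7+Il12b-), Usp36, a nucleolar deubiquitinase (-0.83 and -0.54), and Skp2, a ubiquitin ligase subunit (-0.68 and -0.37). In CCR7+Il12b- cells these calls were lost without immature replicate 3 for all of them, and without immature replicate 2 for Usp36 and Aurka. They were also lost without CCR7+Il12b- replicate 1 for Aurka and Skp2, and without CCR7+Il12b- replicate 2 for Skp2. The limma adjusted p-values ran up to 0.0652 for Usp36, 0.0742 for Aurka and 0.104 for Skp2. Fbxw7, a ubiquitin ligase subunit named after its values were seen, passed in neither mature group against immature cells. In CCR7+Il12b- cells it changed by -0.81 (limma adjusted p = 0.0855). It passed there without CCR7+Il12b- replicate 1 (-1.03, adjusted p = 0.0415) and without either CCR7+Il12b+ array (-0.81 each time). Its CCR7+Il12b+ arrays lay apart, at 7.69 and 6.26, against 7.79, 7.38 and 7.53 in immature cells. Without the higher of them, replicate 1, the change in CCR7+Il12b+ cells was -1.31, from the 1 array left in that group.

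The MLX branch was measured through its partners and targets, and Mga, which pairs with MAX, was listed with the partners. Mlxip, which encodes MondoA, Mlxipl, which encodes ChREBP, and Mga passed in no comparison. Their changes were 0.14, 0.17 and 0.06 in CCR7+Il12b+ and 0.26, 0.10 and -0.04 in CCR7+Il12b- against immature cells. Between the mature groups they were -0.12, 0.07 and 0.10. Mlxipl lay near the background mark of 4.98, with means of 5.28 in CCR7+Il12b+, 5.21 in CCR7+Il12b- and 5.10 in immature cells. Little is read from its lack of change. Txnip, the MondoA target that limits glucose uptake, read 7.89 and 7.88 in CCR7+Il12b+, 8.43, 8.11 and 8.22 in CCR7+Il12b-, and 8.93, 9.10 and 9.27 in immature cells. Txnip changed by -1.21 ± 0.14 in CCR7+Il12b+ (limma adjusted p = 4.61e-05) and by -0.84 ± 0.12 in CCR7+Il12b- cells (adjusted p = 0.000578), and the mature groups differed by -0.37 (adjusted p = 0.168). Arrdc4, a related arrestin and the other target listed, passed in no comparison, with 0.35 in CCR7+Il12b+ (adjusted p = 0.0665) and 0.12 in CCR7+Il12b- cells. Without CCR7+Il12b+ replicate 2, with 1 array left in that group, Arrdc4 was at 0.54 (adjusted p = 0.0173).

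**Figure D4:**
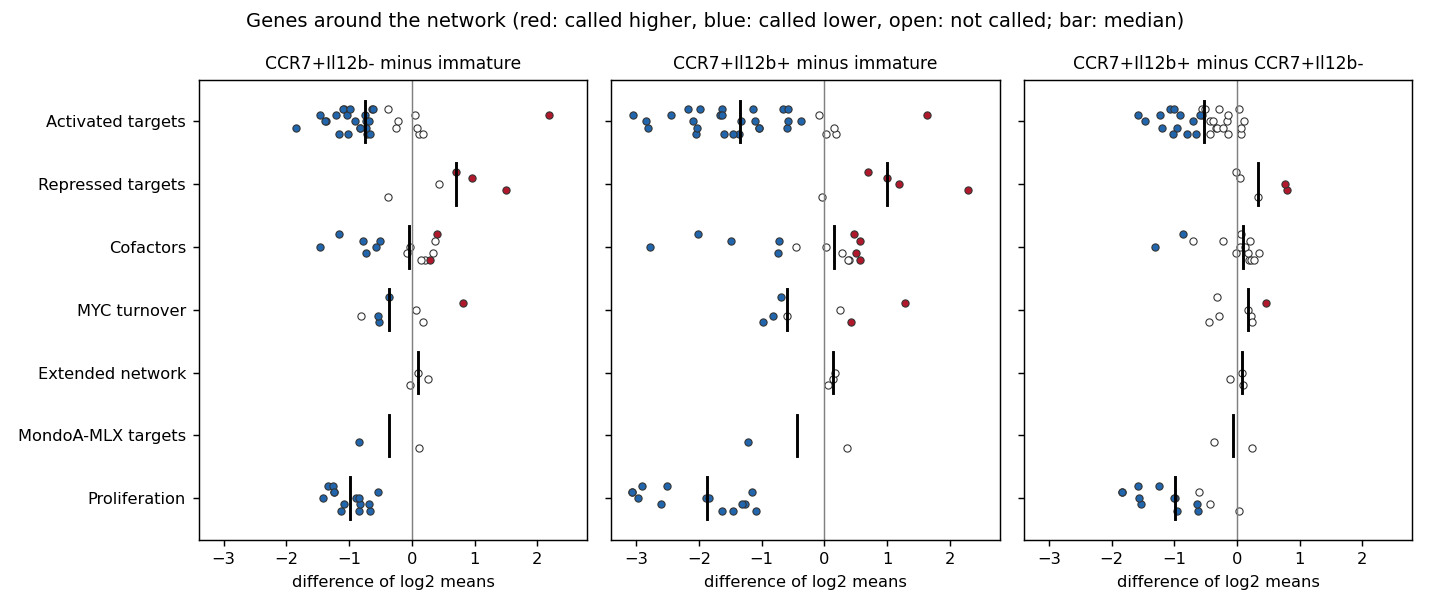
Differences of log2 means in the 3 comparisons for genes around the network, grouped as partners, cofactors, turnover genes, activated and repressed targets, MondoA-MLX targets and proliferation genes; red points were called higher, blue points lower and open points neither, and bars are medians. Activated targets and proliferation genes lie to the left and repressed targets to the right.

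Proliferation genes moved with Myc and Mycl, and their part in these results was not tested. Of 15 genes 14 were measured, and all 14 measured were lower than in immature cells, with a median change of -1.87 for CCR7+Il12b+ and -0.99 for CCR7+Il12b-, and 11 were lower in CCR7+Il12b+ than in CCR7+Il12b- cells (median -0.99). Of all genes 17.9%, 14.5% and 4.47% were lower. In that last comparison 6 were lower without CCR7+Il12b+ replicate 1 and 7 without CCR7+Il12b+ replicate 2. Ccna2, which encodes cyclin A2, changed by -3.07 ± 0.24 in CCR7+Il12b+ relative to immature cells. Bub1, a spindle checkpoint kinase, fell below the mark in CCR7+Il12b+ cells, at 4.45 and 4.27 against 7.20, 7.20 and 7.60 in immature cells, and was at least 5.11-fold lower. Top2a, the topoisomerase of dividing cells, changed by -3.06 ± 0.18 in CCR7+Il12b+ and -1.24 ± 0.16 in CCR7+Il12b- against immature cells, but by -1.30 and -0.69 with the mean of all its probe sets.

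The genes whose values over the 8 arrays were most like those of Myc by Pearson's r, among 12260 genes, were Cyb5r1 (0.997), Anapc5 (0.997), Pcbp1 (0.996), Tfrc (0.995) and Arhgap18 (0.995). Tfrc, the transferrin receptor, is also in the list of activated targets. For Mycl they were Rraga (0.998), Knl1 (0.997), H2-DMa (0.996), Tlr3 (0.995) and Camk1d (0.994), of which Tlr3 is the receptor for double-stranded RNA that XCR1+ dendritic cells are known for. For Mxd1, added after its values were seen, they were Pygl, Birc2, Nup98, Zfp872 and Gtf2a1, all at 0.998. Myc and Mycl correlated with each other at 0.94, Myc with Mxd1 at -0.94 and Mycl with Mxd1 at -0.89. All of these are descriptions over 8 arrays that share the same 3 group steps.

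Markers of other cells moved in part with the groups, and their part in the network's changes was not tested. The summed signal of 12 XCR1+ dendritic cell markers was 13.04 to 13.25 on the log2 scale in CCR7+Il12b+, 13.66 to 13.96 in CCR7+Il12b- and 14.26 to 14.37 in immature cells. Against immature cells 9 of these were called lower and 1 higher in CCR7+Il12b+, and 6 lower and 1 higher in CCR7+Il12b- cells. Of all genes 17.9% were lower and 14.1% higher in the first comparison, and 14.5% and 9.10% in the second. The summed signal of 4 B cell markers was 8.43 to 8.54 in CCR7+Il12b+, 8.93 to 9.40 in CCR7+Il12b- and 7.88 to 8.21 in immature cells. In every group 3 of 4 lay above the mark and Cd79a below it. Named after their values were seen, Ms4a1 was 1.88-fold and 2.85-fold higher in CCR7+Il12b+ and CCR7+Il12b- than in immature cells (limma adjusted p = 0.00328 and 0.000104). Cd79b was 1.49-fold lower and 1.49-fold higher (adjusted p = 0.0499 and 0.0406). Pax5 passed in neither comparison, and Cd79a was called higher in CCR7+Il12b- cells only (adjusted p = 0.0106). The summed signal of 4 plasmacytoid dendritic cell markers was 9.12 to 9.14 in CCR7+Il12b+, 9.14 to 9.38 in CCR7+Il12b- and 9.79 to 10.12 in immature cells. All 4 were called lower in both mature groups than in immature cells. For 5 CD11b+ dendritic cell markers the summed signal was 8.74 to 8.80 in CCR7+Il12b+, 9.26 to 9.56 in CCR7+Il12b- and 8.16 to 8.79 in immature cells. Against immature cells 1 of the 5 was called higher and 1 lower in CCR7+Il12b+ cells, and 2 higher and 0 lower in CCR7+Il12b- cells. Named after their values were seen, Irf4 was higher in both (0.88 and 1.02) and Sirpa in CCR7+Il12b- cells only (1.08). Cd4 was lower in CCR7+Il12b+ cells (-0.56). Of 5 monocyte and macrophage markers it was 10.36 to 10.63, 10.79 to 11.16 and 10.75 to 10.96, and these 5 markers, named after their values were seen, did not share a direction. Against immature cells Spic was 8.37-fold higher in CCR7+Il12b+ and 8.87-fold higher in CCR7+Il12b- cells, Lyz2 was 8.62-fold and 2.74-fold lower, Cd14 was at least 2.41-fold lower and 2.07-fold lower, Csf1r changed by -0.58 and -0.31, the second not passing, and Adgre1, at 0.11 without a call in CCR7+Il12b+ cells, was at least 1.28-fold higher in CCR7+Il12b- cells. Of 3 T cell markers 1 lay above the mark, with sums of 6.21 to 6.23 in CCR7+Il12b+, 6.35 to 6.48 in CCR7+Il12b- and 6.17 to 6.32 in immature cells. This was Cd3e, named after its values were seen, which was higher in CCR7+Il12b- than in immature cells (0.37, limma adjusted p = 0.0427). Cd3d, below the mark, was called lower in CCR7+Il12b+ cells (adjusted p = 0.0261), and Cd3g passed in neither comparison with immature cells. NK cell markers (0 of 4 above the mark) stayed low in all groups. Of 4 neutrophil markers 3, 3 and 2 lay above the mark in CCR7+Il12b+, CCR7+Il12b- and immature cells, with sums of 6.67 to 7.17 over all arrays. Alas2, the 1 erythroid marker measured, read 5.72 to 5.80 in CCR7+Il12b+, 5.59 to 5.75 in CCR7+Il12b- and 5.16 to 5.27 in immature cells.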

How the data were processed

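The authors deposited a log2 value for each probe set. RMA and oligo are named in the submitters' processing notes, while their versions and options and the genome build were not given in the sources used here. Per the labels' protocols, 3 or 20 ng of RNA went into a double round of amplification, and which array had which input is not given, so an effect of input was not tested. RMA usually includes quantile normalization, which hides a change in total RNA per cell. Array medians still ran from 5.25 to 5.46, and 0 columns of the table were left unused.

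Of 35556 probe sets, 21789 had 1 symbol in the platform annotation, 1621 had several and 12146 had none in the table used. The probe set with the highest mean stood for a gene (999 genes had more than 1), which left 19938 genes. All 8 arrays entered 1 model of 3 group means in limma 3.58.1 (R 4.3.3; lmFit and eBayes, two-sided), with Benjamini-Hochberg adjustment over all 19938 genes and calls at an adjusted p under 0.05. No gene was removed for low values. Where a group of a called gene lies below the background mark, each array is raised to at least the mark and the fold is a bound. The script was tested on simulated data. Precision is limited by the number of arrays.

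The network genes, the lists and the tests were chosen with earlier results of these data known. Named are all 10 network genes, up to 4 called genes of each list with the largest change in a comparison, and all genes of lists of 3 or fewer. Also named are genes that check the sort and the 5 genes most like Myc and Mycl. Others are marked as chosen after their values were seen. Listed genes without a single-symbol probe set were not analysed here. Alternatives were the replicate number as a block, each array left out, only both groups compared, a filter on dim genes, the mean of a gene's probe sets, median centring, quantile normalization and array weights.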

Additional observations from a re-analysis of the deposited data

How the results depend on the processing

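The calls of Myc, Mycl, Max and Mxd1 against immature cells were kept in all 15 alternatives, in both mature groups. Leaving out 1 array gave 4 to 5 network genes called in CCR7+Il12b+ against immature cells, 4 to 6 in CCR7+Il12b- against immature cells and 1 to 3 between the mature groups, against 5, 5 and 3 with all arrays. Over the 75 genes of the surrounding lists the ranges were 52 to 60, 45 to 55 and 16 to 31, against 59, 53 and 29. Over all genes they were 4982 to 6617, 3290 to 4962 and 712 to 1771, against 6383, 4706 and 1412. The lowest count between the mature groups came without CCR7+Il12b+ replicate 1 in each case, and 925 and 786 genes were called without CCR7+Il12b- replicate 1 and 2.

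Signs turned only for changes that did not pass the test. In CCR7+Il12b+ against immature cells these were Mycn with median centring (-0.0335) and quantile normalization (-0.0631), Mxd4 with quantile normalization (0.0155), and, over the arrays left out in turn, Mxd3 (-0.28 to 0.00682) and Mxd4 (-0.13 to 0.00732), positive without CCR7+Il12b+ replicate 1. In CCR7+Il12b- against immature cells it was Mnt with quantile normalization (0.0327). Between the mature groups Mlx turned with median centring (-0.0253) and array weights (-0.0232), and with arrays left out the ranges were -0.0592 to 0.0408 for Mycn, -0.22 to 0.063 for Mxd3 and -0.0974 to 0.102 for Mlx. The cause was not tested. Mycn has no value under the filter on dim genes.

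Median centring gave a median change of all genes of -0.05 (0.09 as deposited) in CCR7+Il12b+ and -0.04 (0.06) in CCR7+Il12b- against immature cells, with 1798 higher and 4168 lower calls (2816 and 3567 as deposited) in the first and 1301 and 3397 (1814 and 2892) in the second. Same-numbered samples deviated together in few pairs (correlations of -0.17 to 0.22). Deviations from a mean of 2 or 3 arrays depend on each other, so these correlations cannot decide whether the numbers pair the arrays. With the replicate block 4, 4 and 3 network genes were called, Mxi1 (limma adjusted p = 0.057) and Mxd4 (0.0541) being lost.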
